A study of Mus musculus with 32 samples.

Results

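Lyrm9, Irf5, Scn3a and Tnpo3 were followed in every library of a study of E14 cells, a line of mouse embryonic stem cells. They are 4 of the 17440 genes listed in at least 1 of 5 deposited expression tables, and 12805 genes are listed in all 5. Lyrm9, Irf5 and Scn3a were chosen because their measured levels were far lower after degradation of the chromatin protein CTCF than before it. Tnpo3 was chosen because its 3' end overlaps that of Irf5 on the opposite strand. All 4 genes are listed in every table and passed the filter on low values there. The genes were thus chosen by their measured levels after CTCF loss, and those values are given as a description, without a test. Of 3 experiments in which CTCF was degraded without added CTCF, Scn3a was low in all 3. Lyrm9 was lower in 2 and had overlapping libraries in the other, and Irf5 was lower after the loss in 1, the time course. Untreated Irf5 read only 11.48 and 20.83 normalised counts in the serum experiment and 7.669 and 6.776 in overexpression control cells. Whether such levels limit how far a fall can be seen was not tested. The name CTCF-dependent is a description of these levels, and dependence was not tested. It covered Scn3a in all 3 experiments, but Lyrm9 and Irf5 only in part of them.

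CTCF is a zinc-finger protein that binds a long DNA motif and halts the cohesin ring as it extrudes chromatin, which leaves loops anchored at CTCF sites. It also binds close to many gene starts. RAD21 is the subunit that closes the cohesin ring. Lyrm9 encodes a small protein of the LYR-motif family, whose members mostly serve assembly of mitochondrial respiratory complexes. Irf5 encodes interferon regulatory factor 5, a transcription factor that acts after Toll-like receptors and is known mainly from myeloid and B cells. Scn3a encodes a pore-forming subunit of voltage-gated sodium channels, known from embryonic neurons. Tnpo3 encodes transportin 3, an importin-beta family receptor that carries serine and arginine rich splicing factors into the nucleus.

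RNA was sequenced from 32 libraries in 16 groups of 2. An auxin-inducible degron (AID) was fused to CTCF or RAD21 in all cells, so that adding an auxin sends the fused protein to the proteasome. CTCF AID cells received 500 uM indole-3-acetic acid (IAA) for 0, 12 or 24 h, and RAD21 AID cells received 1 uM of 5-Ph-IAA for 0, 12 or 24 h. A separate CTCF AID experiment, labelled as a serum condition, had 0 h and 12 h groups, while the culture protocol names only a medium without serum. CTCF AID cells carrying an overexpression control, overexpressed wild-type CTCF or overexpressed mutated CTCF were each measured with and without 12 h of IAA, and the mutation is not named. CTCF AID cells with a control hairpin or a hairpin against Chd4, the ATPase of the NuRD chromatin remodelling complex, were measured with no IAA named in their labels. No group lacked a degron, and no group of untagged cells with IAA was analysed. The labels do not say whether the cells of a line came from 1 clone, nor whether replicates were separate cultures, so p-values measure only the spread between these libraries.

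The stretches before the starts of Lyrm9 and Irf5 are shown because both genes were low after CTCF loss in the time course while their letters differ at a core of the CTCF motif. The sequences are RefSeq promoters on GRCm38.p6, cut before the first annotated start, 5' to 3'. Capitals mark 12 bases that match a relaxed form of the motif, chosen after the sequences were seen: CC, any 3 bases, AG, any 2 bases and GGC. The Lyrm9 stretch lies at chr11:78826345-78826583 on the plus strand and the Irf5 stretch at chr6:29526375-29526624 on the plus strand.
Lyrm9: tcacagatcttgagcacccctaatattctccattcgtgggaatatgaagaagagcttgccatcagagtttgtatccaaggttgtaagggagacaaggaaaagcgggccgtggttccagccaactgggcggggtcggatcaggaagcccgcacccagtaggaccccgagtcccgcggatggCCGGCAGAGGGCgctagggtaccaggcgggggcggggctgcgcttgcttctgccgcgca
Irf5: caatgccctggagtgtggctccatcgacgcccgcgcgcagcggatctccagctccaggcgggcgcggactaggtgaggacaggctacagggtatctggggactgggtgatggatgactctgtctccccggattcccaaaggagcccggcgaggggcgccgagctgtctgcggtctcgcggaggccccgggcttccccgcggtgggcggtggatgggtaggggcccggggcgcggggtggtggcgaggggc
The match before Lyrm9, CCGGCAGAGGGC, begins 70 bases before the RefSeq start, and the Irf5 promoter holds no match on either strand. The Tnpo3 promoter (chr6:29609800-29610099, minus strand) holds the match CCGGGAGGAGGC, which begins 94 bases before its start. Of 32851 promoters of the same 300-base length, 2828 (8.61%) hold a match on either strand. A stricter form, CCA, any 2 bases, AG, any 2 bases and GGC, is in 797 (2.43%) and in none of these 3. The core AGNNGGC alone, which both longer forms contain, is in 19640 promoters (59.8%). The whole promoters are 63% G or C with 26 CpG for Lyrm9, 74.7% with 35 CpG for Irf5 and 56.7% with 17 CpG for Tnpo3. A match is a description of letters and shows no binding.

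In the GENCODE annotation of GRCm38, Lyrm9 (ENSMUSG00000072640) spans chr11:78826584-78846870 on the plus strand with 4 exon blocks. Scn3a (ENSMUSG00000057182) spans chr2:65457118-65567627 on the minus strand with 28 exon blocks, and the antisense gene Gm13595 inside it shares no exon with it. Irf5 (ENSMUSG00000029771) spans chr6:29526625-29541871 on the plus strand, and Tnpo3 (ENSMUSG00000012535) spans chr6:29540827-29609887 on the minus strand. Irf5 and Tnpo3 lie tail to tail and overlap by 1045 bases, of which 411 are exonic in both. Those 411 bases are 14.15% of the exonic length of Irf5 and 3.14% of that of Tnpo3. Whether strand was used in counting is not given in the sources used here, so they do not say to which gene reads on these bases were counted. If the Tnpo3 reads were spread evenly over its exons, 97.5 to 161 normalised counts would fall on the shared bases, depending on the library. The Irf5 level was below that share in 31 of 32 libraries, the exception being replicate 2 of the CTCF AID 0 h group. Its lowest level was 2.313, in replicate 1 of mutated CTCF without IAA, where that share was 139.

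Library totals of the deposited values ran from 15364584 to 19642332 normalised counts, and replicate libraries correlated with r of 0.982 to 0.992 across genes. The 7 pluripotency markers were listed in every table, and the myeloid markers Ptprc, Csf1r and Aif1 were listed in none. In 4 libraries the title contradicts the treatment label on IAA, and groups follow the titles here. Cyp1a1, a target of the aryl hydrocarbon receptor, read 109.4 and 104.6 normalised counts in overexpression control cells without IAA and 883.2 and 832.6 with it. It read 833 and 946.4 in the libraries titled wild-type CTCF with IAA and 141.8 and 137.9 in those titled mutated CTCF without IAA, so Cyp1a1 went with the titles. Ctcf stood at 4134 and 4332 in control cells without IAA, against 9275 and 9481 with wild-type and 9589 and 9712 with mutated CTCF added. Chd4 read 9923 and 9526 with the control hairpin but 3379 and 3729 with its own hairpin. Degron loss acts on the protein, so the transcript levels of Ctcf and Rad21 do not check it.

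In the CTCF AID time course, Lyrm9, Irf5 and Scn3a were at 2.54% to 6.86% of their untreated means after IAA, and Tnpo3 was not. Lyrm9 read 506.7 and 446.6 normalised counts at 0 h, 15.88 and 16.59 at 12 h, and 15.91 and 13.34 at 24 h. All treated libraries lay far below both untreated ones, and the 12 h and 24 h libraries overlapped. The log2 difference was -4.79 (SE 0.24) at 12 h and -4.94 (SE 0.24) at 24 h, leaving means of 3.41% and 3.07% of the untreated mean.

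Irf5 read 102.4 and 279.8 normalised counts at 0 h, 9.064 and 7.899 at 12 h, and 5.977 and 3.733 at 24 h. The untreated libraries differed widely from each other, a gap matched or passed by 1.34% of the genes tested, yet both stood above every treated library. Both 24 h libraries lay below both 12 h libraries. The log2 difference from 0 h was -4.17 (SE 0.52) at 12 h and -4.89 (SE 0.52) at 24 h. Without replicate 2 at 0 h, the library that read 279.8, these differences were -3.45 and -4.17.

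Scn3a read 245.6 and 109.9 normalised counts at 0 h, 8.321 and 12.61 at 12 h, and 7.709 and 16.68 at 24 h. The lower untreated library was above every treated library, and the 12 h and 24 h groups overlapped. The log2 difference was -3.88 (SE 0.52) at 12 h and -3.74 (SE 0.52) at 24 h. Tnpo3 read 3423 and 3109 at 0 h, 3700 and 3391 at 12 h, and 3371 and 3302 at 24 h. Its groups overlapped at both times, with log2 differences of 0.12 (SE 0.06) and 0.03 (SE 0.06). Of the genes tested, 17.8% were called at 12 h, 8.4% as lower, and 0.263% were lower by at least 8-fold. At 24 h 22.5% were called, 10.8% as lower, and 0.372% were lower by at least 8-fold. Lower without overlap, as all 3 genes were, stood 30.7% of the genes tested at 12 h and 31.3% at 24 h. The 3 genes lie in the shares of 8-fold lower genes at both times because they were chosen for it.

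**Figure D1:**
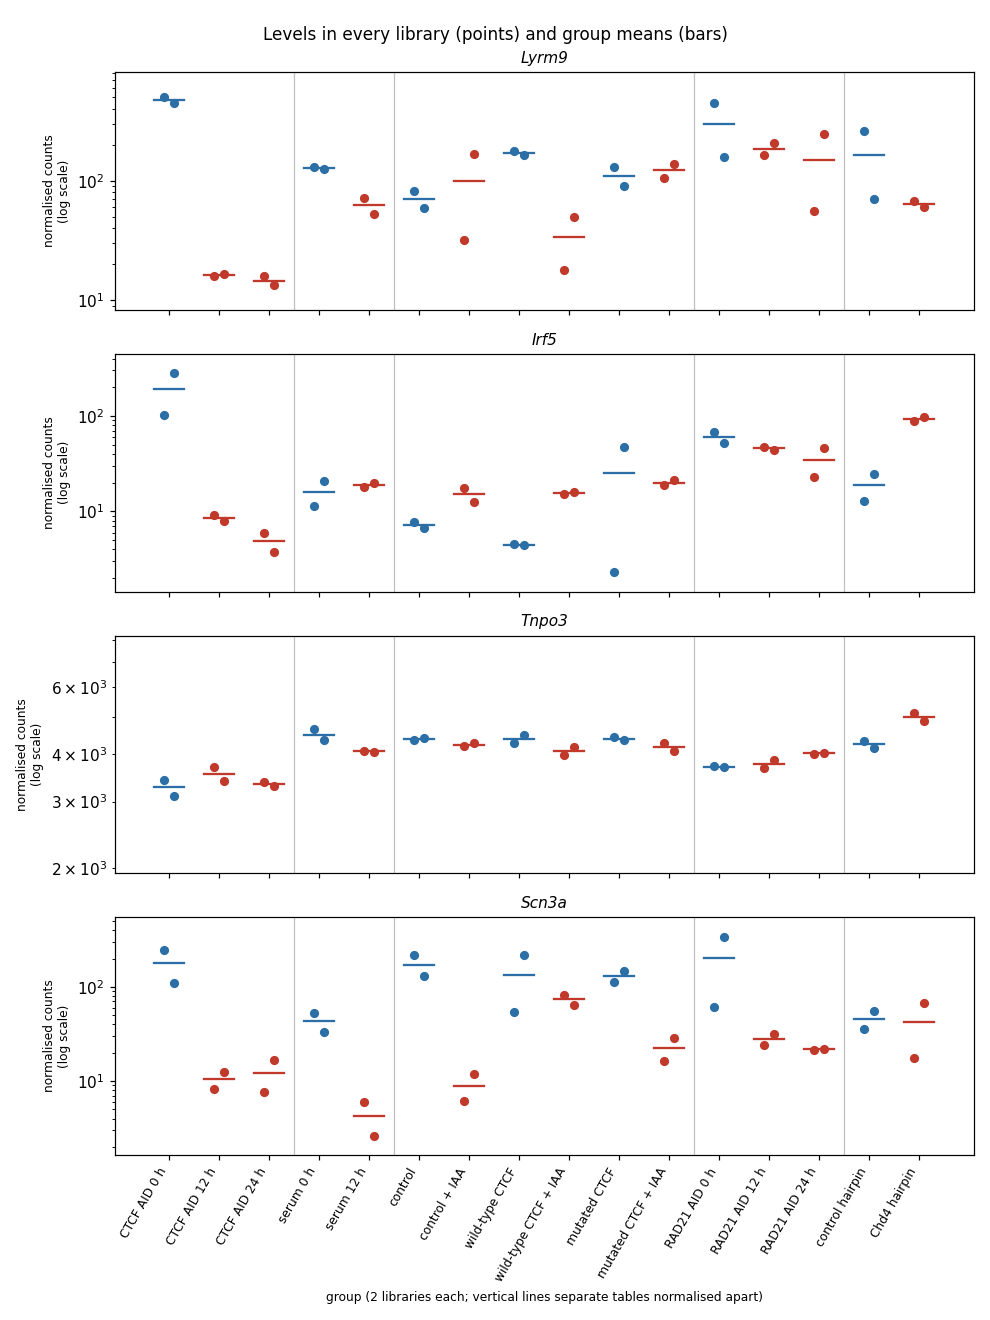
Level of each gene in every library (points, normalised counts on a log scale) with the mean of each group of 2 (bars), blue for untreated or control hairpin groups and red for treated or Chd4 hairpin groups. Lyrm9, Irf5 and Scn3a are low after IAA in the CTCF AID time course, Scn3a is also low in serum and in the overexpression control, and Tnpo3 stays between 3109 and 5121 throughout.

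Summed markers of other cell types were not level across these libraries. The 3 fibroblast markers listed of 6 (Col1a2, Dcn and Postn were not) summed to 241 and 252.9 at 0 h, 106.3 and 117.2 at 12 h, and 94.05 and 103.4 at 24 h, and 1 of 3 tested was called lower at each time. The 3 trophoblast markers listed of 5 (Elf5 and Gata3 were not) summed to 1388 and 1357 at 0 h, 1078 and 1165 at 12 h, and 1170 and 1192 at 24 h, with 1 of 2 tested called lower at 12 h. The 4 neural markers listed summed to 1002 and 1027, 1562 and 1486, and 1301 and 1102 at the 3 times. Of these 4, 1 was called higher and 0 lower at 12 h, with a median log2 difference of -0.29. At 24 h 1 was called higher and 1 lower, with a median of -0.17. The 3 myeloid markers listed of 6 summed to 215.9 and 256.1, 242.1 and 257.7, and 244.7 and 198.8. The primitive endoderm sum was 76.07 and 78.35, 68.46 and 94.37, and 85.13 and 93.57 at the 3 times, with 0 of 2 tested called. The pluripotency sum was 75560 and 75480, 78720 and 79000, and 77540 and 77610. Of its 7 markers 2 were called higher and 1 lower at 12 h, and 2 and 2 at 24 h. The fibroblast and trophoblast sums were thus lower where Lyrm9, Irf5 and Scn3a were, and the myeloid sum overlapped. The neural sum was higher although the median difference of its markers was negative. The part of other cells in the levels of the 4 genes was not tested, and in such bulk RNA fewer expressing cells cannot be told apart from less RNA per cell.

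In the serum condition, Scn3a was again low after 12 h of IAA, Lyrm9 was lower by a smaller factor, and Irf5 was not lower. Scn3a read 52.63 and 33.3 normalised counts at 0 h and 5.932 and 2.626 at 12 h, with no overlap. Its log2 difference was -3.10 (SE 0.46), or 9.96% of the untreated mean. Lyrm9 read 130.2 and 126.4 at 0 h and 72.41 and 53.21 at 12 h, also with no overlap and a log2 difference of -1.04 (SE 0.19). The treated Lyrm9 mean was 49.0% of the untreated one. Irf5 read 11.48 and 20.83 at 0 h and 18.11 and 19.87 at 12 h, so that both treated libraries lay between the untreated ones, and its log2 difference was 0.27 (SE 0.38), or -0.13 to 0.68 as each library was left out. The untreated Irf5 levels in serum were far below those of the time course on each table's own scale, since the tables were normalised separately. Tnpo3 read 4642 and 4343 at 0 h and 4081 and 4056 at 12 h, without overlap, at a log2 difference of -0.14 (SE 0.04). In this comparison 17% of the genes tested were called, and 9.25% as lower. Lower without overlap were 30.1% of the genes tested, and lower by at least 8-fold 0.117%. Pluripotency markers summed to 46500 and 46750 at 0 h and 38730 and 39600 at 12 h, with 5 of 7 called lower. The primitive endoderm sum was 268.6 and 258.9 at 0 h and 370.8 and 302.8 at 12 h (1 of 4 tested called higher). The neural sum was 2311 and 2387 against 2218 and 2271 (1 of 5 tested called lower). Of the trophoblast, myeloid and fibroblast markers, 0 were called. The part of such cells was not tested.

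In the overexpression control cells, 12 h of IAA left Scn3a low, as in the other 2 experiments, but not Lyrm9 or Irf5. Scn3a read 216 and 129.4 normalised counts without IAA and 6.167 and 11.75 with it, a log2 difference of -4.14 (SE 0.56), or 5.19% of the untreated mean. Lyrm9 read 82.01 and 59.28 without IAA and 32.26 and 168.4 with it. The treated Lyrm9 libraries lay on either side of the untreated ones, a replicate gap matched or passed by 0.359% of the genes tested. Its log2 difference was 0.09 (SE 0.63), and it ran from -1.09 to 1.26 as each library was left out. Irf5 read 7.669 and 6.776 without IAA and 17.45 and 12.67 with it, higher in both treated libraries, with a log2 difference of 0.95 (SE 0.92). Its untreated level in these cells was thus near the level left after CTCF loss in the time course, on separately normalised scales. Tnpo3 read 4344 and 4402 without and 4207 and 4263 with IAA, a log2 difference of -0.05 (SE 0.04). Of the genes tested, 25.3% were called here, 12.5% as lower. Lower without overlap were 32.2% of the genes tested, higher without overlap 31.5%, and lower by at least 8-fold 0.151%. The neural sum was 1564 and 1614 without and 2551 and 2473 with IAA (1 of 4 tested markers called higher). The median log2 difference of these markers was -0.37, and 2 were lower at an unadjusted p under 0.05 by limma. The trophoblast sum was 1441 and 1347 without and 1823 and 1753 with IAA (1 of 3 called higher). The primitive endoderm sum was 68.87 and 48.22 without and 129.8 and 126.3 with it (1 of 2 called higher). The myeloid sum was 296.2 and 277.2 without and 193.6 and 209 with it (1 of 3 called lower). The pluripotency and fibroblast sums overlapped. The part of such cells in these levels was not tested.

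With wild-type CTCF added, Scn3a after IAA was at more than 50 normalised counts in both libraries, whereas Lyrm9 was low. Scn3a read 54.8 and 216 without IAA and 82.82 and 64.35 with it. Both treated libraries lay between the untreated ones, whose gap is matched or passed by 0.746% of the genes tested. The log2 difference of -0.57 (SE 0.56) did not pass the test (limma, adjusted p = 0.509), with a treated mean of 54.3% of the untreated one. Without the first untreated library the difference was -1.55, and without the second it was 0.41, so 1 library decides its direction. The Scn3a effect of IAA was higher by 3.56 on the log2 scale with wild-type CTCF than in control cells, a description and not a test.

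Lyrm9 read 178.6 and 164.8 normalised counts without IAA and 18.02 and 49.33 with it, in cells carrying wild-type CTCF. Both treated libraries were far below both untreated ones, the log2 difference was -2.48 (SE 0.63), and the treated mean was 19.6% of the untreated mean. This value was known when Lyrm9 was chosen and has no test. Irf5 read 4.549 and 4.41 without IAA and 15.19 and 15.91 with it, and both treated libraries were higher. Its log2 difference of 1.59 (SE 0.92) did not pass the test (limma, adjusted p = 0.248). Tnpo3 read 4275 and 4476 without and 3986 and 4173 with IAA, at -0.10 (SE 0.04, limma adjusted p = 0.0784). By limma none of the 3 genes tested was called, and only Tnpo3 had an unadjusted p under 0.05, in a comparison where 21.4% of all genes were called, and 30.6% were lower and 30.7% higher without overlap.

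With mutated CTCF added, Scn3a was low after IAA and Lyrm9 was not. Scn3a read 113.3 and 148 normalised counts without IAA and 16.5 and 28.9 with it, without overlap. Its log2 difference was -2.51 (SE 0.56) and its treated mean 17.4% of the untreated mean, a value known when the gene was chosen and so given without a test. Set beside the control cells, its effect of IAA was 1.62 higher on the log2 scale. Lyrm9 read 129.6 and 91.35 without and 105.2 and 139 with IAA, with overlapping groups and differed by 0.15 on the log2 scale (SE 0.63, limma adjusted p = 0.906). Irf5 read 2.313 and 47.71 without IAA, a gap matched or passed by 0.0646% of the genes tested, and 18.78 and 21.2 with it. The treated Irf5 libraries lay between the untreated ones, and the log2 difference was 0.72 (SE 0.92, limma adjusted p = 0.648). That value was 2.66 without untreated replicate 2 and -1.22 without untreated replicate 1, so no direction can be read. Tnpo3 read 4421 and 4359 without and 4263 and 4073 with IAA, at -0.08 (SE 0.04, limma adjusted p = 0.207). By limma none of Lyrm9, Irf5 and Tnpo3 was called and none had an unadjusted p under 0.05, against 16.2% of the genes tested called and 30% lower without overlap.

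With IAA present, the cells carrying mutated CTCF had less Scn3a and more Lyrm9 than those carrying wild-type CTCF in every library, but neither difference passed the test. Scn3a differed by -1.69 on the log2 scale (SE 0.56, limma adjusted p = 0.164) and Lyrm9 by 1.98 (SE 0.63, limma adjusted p = 0.153). The low group of each of these genes belongs to a value known when the gene was chosen. Their p-values here, adjusted or not, are thus not independent of that choice. Irf5 differed by 0.34 (SE 0.92) and Tnpo3 by 0.03 (SE 0.04). In this comparison 2.25% of the genes tested were called, none of them among the 4, of which Lyrm9 and Scn3a had an unadjusted p under 0.05, and 23.1% were lower and 24.8% higher without overlap.

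Before IAA, none of the 4 genes was called with added CTCF (limma), and none had an unadjusted p under 0.05. Lyrm9 was above both control libraries in all 4 libraries with added CTCF, at log2 differences of 1.29 (SE 0.63, limma adjusted p = 0.448) with wild-type and 0.63 (SE 0.63, limma adjusted p = 0.633) with mutated CTCF. Scn3a, Irf5 and Tnpo3 differed by -0.61, -0.58 and 0.00 with wild-type and by -0.37, 0.63 and 0.01 with mutated CTCF, at limma adjusted p-values from 0.724 to 0.998. Both comparisons use the same control libraries, whose levels were also part of the values by which the genes were chosen. Of the genes tested, 0.897% were called with wild-type and 5.55% with mutated CTCF, while 20.8% and 25.1% were higher without overlap. By mean level over the 6 groups of this table, Lyrm9 was highest in cells with wild-type CTCF and lowest in the same cells with IAA, and neither group overlapped its neighbour in the order. Between them stood mutated CTCF with IAA, mutated CTCF without it, control with IAA and control without it, in that order, and each of these overlapped the next. Control with IAA, at 32.26 and 168.4 normalised counts, overlapped both end groups. These read 178.6 and 164.8 without IAA and 18.02 and 49.33 with it.

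**Figure D2:**
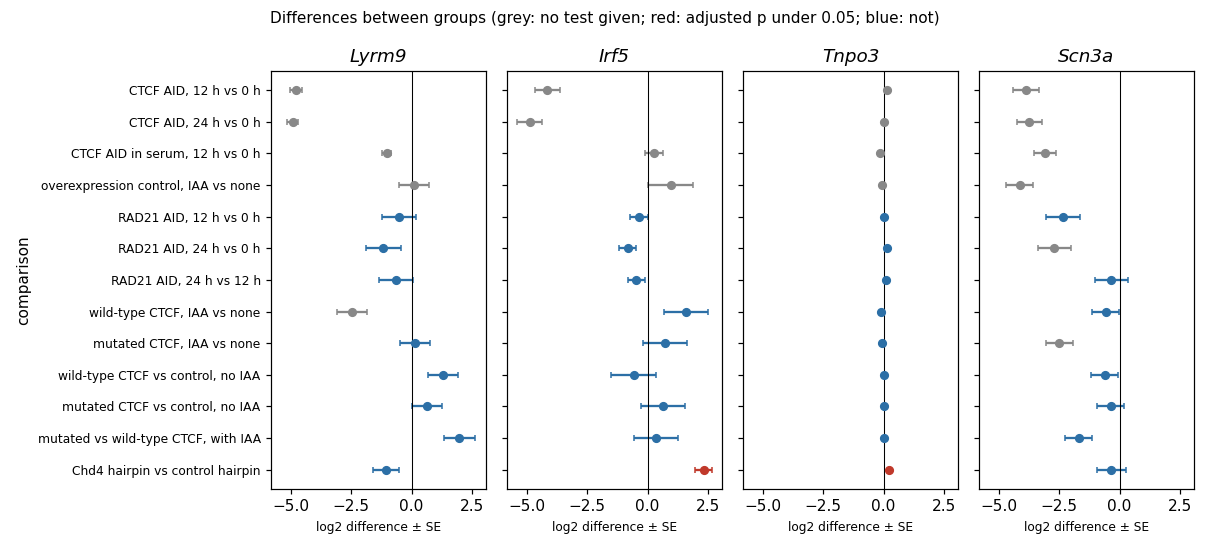
Difference between group means on the log2(value + 1) scale (points) with its standard error (bars) for each gene and comparison, grey where no test is given, red where limma's adjusted p was under 0.05 and blue where it was not. The 2 tested differences that passed are Irf5 and Tnpo3 with the Chd4 hairpin, at 2.32 and 0.23.

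Scn3a was lower in all libraries with RAD21 loss, and no difference that was tested in this experiment was called. Scn3a read 61.51 and 343 normalised counts at 0 h, 24.27 and 31.4 at 12 h, and 21.62 and 21.66 at 24 h. All 4 treated libraries lay below both untreated ones, while the untreated libraries differed by a gap that only 0.4% of the genes tested match or pass. The log2 difference was -2.36 (SE 0.70) at 12 h, which did not pass the test (limma, adjusted p = 0.072). That p is not independent of the choice of Scn3a, because the 24 h value known then rests on the same untreated libraries. At 24 h it was -2.70 (SE 0.70), a value known when the gene was chosen and so given without a test. Without the untreated library that read 343, the 24 h difference was -1.47, and without the other untreated library the 12 h difference was -3.59. The 2 trophoblast markers listed of 5 (Cdx2, Elf5 and Gata3 were not) summed to 864.1 and 960.8 at 0 h, 679.3 and 705.3 at 12 h, and 525.2 and 483.2 at 24 h, with both called lower at 24 h. The neural sum was 1274 and 1212, 1401 and 1243, and 1056 and 984.9 at the 3 times, with 1 of 5 called lower at 24 h. The primitive endoderm sum was 124 and 111.3, 184.1 and 175.2, and 175.2 and 155.5, with 0 of 5 called. The myeloid sum was also higher at both times, with 0 of 2 called. Of 3 fibroblast markers tested 1 was called higher at 24 h. Of 7 pluripotency markers 1 was called higher and 3 lower at each time. The part of such cells in the Scn3a level was not tested.

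Lyrm9 read 445.8 and 157.1 normalised counts at 0 h of the RAD21 series, 163 and 207.1 at 12 h, and 55.5 and 244.9 at 24 h. Its groups overlapped at both times, and the untreated gap is matched or passed by 1.43% of the genes tested. In the untreated pair, replicate 1 was the higher library for Lyrm9 and replicate 2 for Scn3a. The log2 differences of Lyrm9 were -0.53 (SE 0.71, limma adjusted p = 0.665) at 12 h and -1.17 (SE 0.71, limma adjusted p = 0.314) at 24 h. Irf5 read 67.69 and 51.71 at 0 h, 47.78 and 43.96 at 12 h, and 23.16 and 46.51 at 24 h. Every treated Irf5 library was below both untreated ones, by -0.36 (SE 0.36, limma adjusted p = 0.549) and -0.83 (SE 0.36, limma adjusted p = 0.18) on the log2 scale. Neither passed the test.

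Tnpo3 read 3710 and 3698 at 0 h, 3679 and 3858 at 12 h, and 3994 and 4033 at 24 h of RAD21 loss. Its 24 h libraries were the highest, at a log2 difference of 0.12 (limma, adjusted p = 0.0875). Between 12 h and 24 h, which makes no use of the untreated libraries, the log2 differences were -0.65 for Lyrm9, -0.47 for Irf5, 0.09 for Tnpo3 and -0.34 for Scn3a, at limma adjusted p-values from 0.145 to 0.787. For Scn3a the 24 h libraries belong to the value known when it was chosen. Over all genes, 13% were called at 12 h, 13.7% at 24 h and 15.9% between the times. Limma called 0 of 4, 0 of 3 and 0 of 4 tested differences of these genes, and 1 in each comparison had an unadjusted p under 0.05. Lower without overlap were 29.8% of the genes tested at 12 h and 29.6% at 24 h, and 29.1% were higher without overlap at 24 h.

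Irf5 rose in cells with the hairpin against Chd4, and Tnpo3 rose there by little. Irf5 read 13 and 24.6 normalised counts with the control hairpin and 89.15 and 97.71 with the Chd4 hairpin. Both Chd4 hairpin libraries were far above both controls, at a log2 difference of 2.32 (SE 0.34), or 4.98-fold, with a limma adjusted p of 0.000872. Without Chd4 hairpin replicate 2 the difference was 2.25 and its limma adjusted p 0.0502. Tnpo3 read 4336 and 4157 with the control and 5121 and 4872 with the Chd4 hairpin, a 1.18-fold rise (log2 difference 0.23, SE 0.05, limma adjusted p = 0.0046). These 2 of 4 genes stand against 67.4% of all genes called in that comparison, 33.5% as higher, and 42.5% higher and 41.9% lower without overlap. How far reads of the shared Tnpo3 tail entered the Irf5 level was not tested.

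Lyrm9 read 260.4 and 70.54 normalised counts with the control hairpin and 68.24 and 60.86 with the Chd4 hairpin. Both Chd4 hairpin libraries were lower than both controls, the lower control only just so. The log2 difference was -1.06 (SE 0.54, limma adjusted p = 0.12), and it was -2.00 without control replicate 2 and -0.13 without control replicate 1. Scn3a read 35.42 and 56.01 with the control and 17.51 and 67.91 with the Chd4 hairpin, with overlapping groups and a log2 difference of -0.35 (limma adjusted p = 0.623). The 5 primitive endoderm markers listed of 6 (Foxa2 was not) summed to 937.9 and 926.1 with the Chd4 hairpin against 100.5 and 119.1 with the control, and of these Dab2, Gata6 and Pdgfra rose while Gata4 and Sox17 fell. The 7 pluripotency markers summed to 58500 and 57930 against 76430 and 75590, with 5 called lower. The 5 fibroblast markers listed of 6 (Dcn was not) summed to 612.8 and 703.9 against 363 and 279.6, and the part of such cells in the Irf5 level was not tested. The trophoblast sum was 1208 and 1282 against 1718 and 1748, with 2 of 3 tested called higher and 1 lower. The 3 myeloid markers listed of 6 summed to 168.3 and 225.3 with the Chd4 hairpin against 269.5 and 243.3 with the control.

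Of 14 tested genes whose starts lie within 500 kb of the Lyrm9 start, 0 were called after 12 h of IAA in the time course and 0 in serum (limma), where 17.8% and 17% of all genes were. At an unadjusted p under 0.05 there were 1 higher and 1 lower at 12 h, and 2 higher and 0 lower in serum. Ccnq, 74.9 kb away and the only other gene within 100 kb tested in the time course, differed by -0.01 on the log2 scale at 12 h. At 24 h Sarm1, an enzyme of axon degeneration 328.8 kb away, fell by 1.11 on the log2 scale (limma adjusted p = 0.00745), and Wsb1 rose by 0.16, so that 2 of 14 were called where 22.5% of all genes were. With wild-type CTCF and IAA, where Lyrm9 was also low, 1 of 14 was called, Ccnq, which rose by 0.33, against 21.4% of all genes. In control cells with IAA, Nlk rose by 0.39 and Poldip2 fell by 0.19. The median difference of the 14 was 0.00 at 12 h, as over all genes.

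Around Irf5, 14 genes other than Tnpo3 were tested. At 12 h in the time course 1 of them was called higher and 1 lower, where 17.8% of all genes were called. In serum 3 were called higher and 0 lower, where 17% were called. In control cells with IAA 1 was called higher and 1 lower, where 25.3% were called. At an unadjusted p under 0.05 by limma, 1 was higher and 5 lower at 12 h in the time course, and 2 and 5 at 24 h. The counts were 4 higher and 0 lower in serum, and 4 and 2 in control cells. Median log2 differences of these neighbours were -0.14 at 12 h, -0.20 at 24 h, 0.09 in serum and 0.05 in control cells, against 0.00 over all genes. Ccdc136, which starts 130.3 kb upstream, rose from 184.8 and 184.2 normalised counts to 464 and 486.9 after 12 h in the time course, a log2 difference of 1.36 (limma adjusted p = 0.00247). It also rose in serum, by 1.33, and in control cells with IAA, by 0.91, with limma adjusted p-values of 0.00169 and 0.000166. It was not called with wild-type CTCF (0.23, limma adjusted p = 0.172) or mutated CTCF (-0.11, limma adjusted p = 0.535) added. Thus 1 gene of the 14 differed with IAA in all 3 experiments, while Irf5 was lower with IAA in 1 of them. Smo, the signal transducer of the Hedgehog pathway, fell by 0.59 at 12 h (limma adjusted p = 0.0142) from 208.9 kb away. Apart from Tnpo3 the nearest gene is Kcp, which read 26.64 and 29.92 at 0 h and 7.682 and 16.5 at 12 h. Its difference of -1.25 was not called (limma adjusted p = 0.0997).

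Around Scn3a only 2 genes were tested. That is too few to set against the 17.8%, 17% and 25.3% of all genes called at 12 h, in serum and in control cells. Cobll1, which starts 328.2 kb away, read 8.044 and 42.5 normalised counts at 0 h and 114.4 and 113.5 at 12 h in the time course, and 15.63 and 9.584 without and 86.5 and 68.04 with IAA in control cells. It rose by 2.53 and 2.55 on the log2 scale, at limma adjusted p-values of 0.0357 and 0.0225, in the same libraries in which Scn3a was low. In serum, where Scn3a was also low, Cobll1 differed by 0.33 (limma adjusted p = 0.341). With wild-type or mutated CTCF added it differed by 1.23 and 0.79 and was not called. Csrnp3, which encodes a nuclear protein and starts 278.1 kb away on the other side, fell by 1.52 after IAA with mutated CTCF (limma adjusted p = 0.000476) and by 0.71 with wild-type CTCF (limma adjusted p = 0.0234). In control cells Csrnp3 differed by -0.52 (limma adjusted p = 0.0711). In the time course it read 121.7 and 90.65 at 0 h, 151.2 and 148.7 at 12 h, and 163.3 and 176.3 at 24 h, where it rose by 0.69 (limma adjusted p = 0.036) as did Cobll1, by 2.74.

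With the Chd4 hairpin, 8 of 16 tested neighbours of Lyrm9 rose and 3 fell, and 5 of 14 tested neighbours of Irf5 rose and 2 fell, where 67.4% of all genes were called. Nos2, the inducible nitric oxide synthase 94.2 kb from the start of Lyrm9, read 0 and 1.164 normalised counts with the control and 22.8 and 17.97 with the Chd4 hairpin (limma adjusted p = 0.00104). Near Irf5, Flnc, a filamin 93.4 kb away, rose by 3.38 on the log2 scale and Kcp by 1.61, at limma adjusted p-values of 1.32e-06 and 0.000356. Ccdc136 fell by 2.75, from 794.4 and 1010 normalised counts with the control to 138.8 and 125.6 with the Chd4 hairpin, while Irf5 rose.

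**Figure D3:**
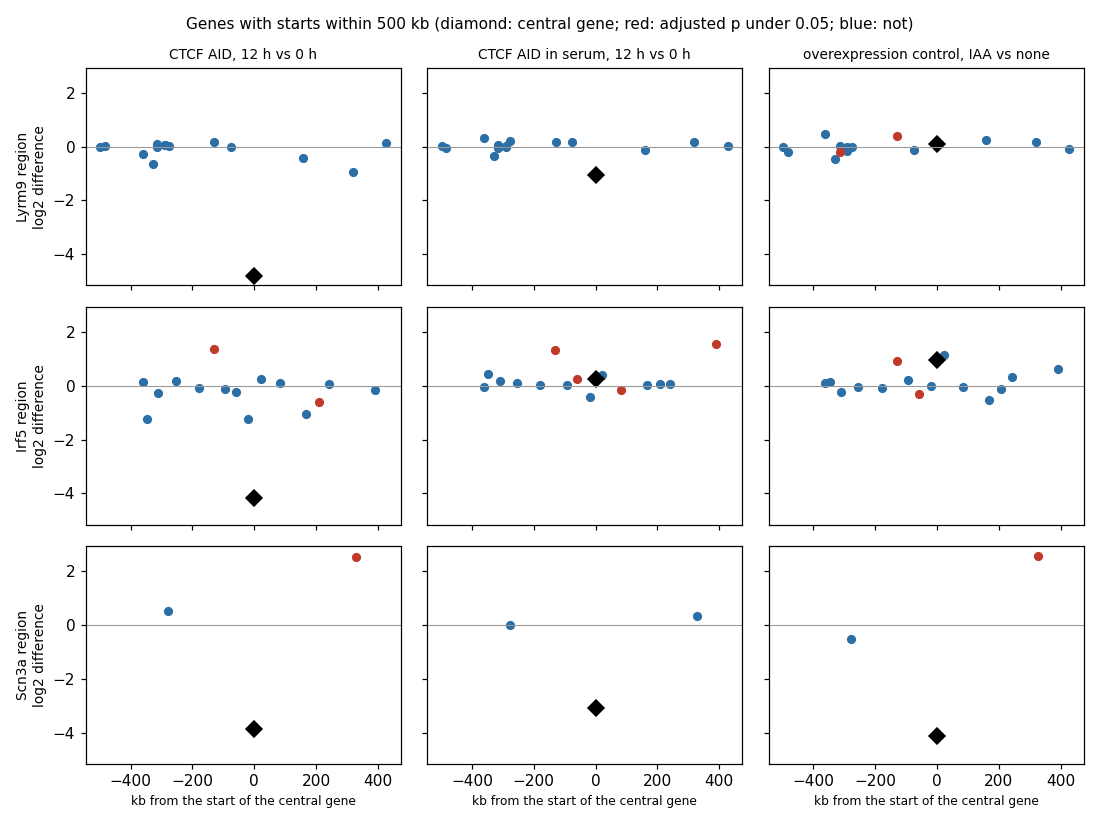
Log2 difference after 12 h of IAA for every tested gene whose start lies within 500 kb of the start of Lyrm9, Irf5 or Scn3a (black diamonds, at 0 kb), in the 3 experiments without added CTCF, with red points called by limma at an adjusted p under 0.05 and blue points not. Ccdc136 is the red point 130.3 kb before Irf5 in all 3 panels, and Cobll1 the red point 328.2 kb from Scn3a in the time course and the control cells.

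Genes whose pattern over the 32 libraries was most like each of the 4 were named by Pearson's r of log2 values centred within each table, among 12389 genes. These r describe libraries that share tables and treatments. For Irf5 they were Cd37 (0.88), Myo1f (0.861) and Dpp4 (0.847). Cd37 encodes a tetraspanin of leukocytes, Myo1f an unconventional myosin and Dpp4 a membrane peptidase. Myo1f read 594.5 and 501 normalised counts at 0 h and 58.14 and 74.39 at 12 h in the time course, but 60.45 and 59.19 without and 89.44 and 98.06 with IAA in control cells. Dpp4 read 1343 and 1293 at 0 h and 409.8 and 464.9 at 12 h, and 208.7 and 197.3 without and 306.5 and 298.6 with IAA in control cells. The likeness to Irf5 follows from how these genes were picked.

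**Figure D4:**
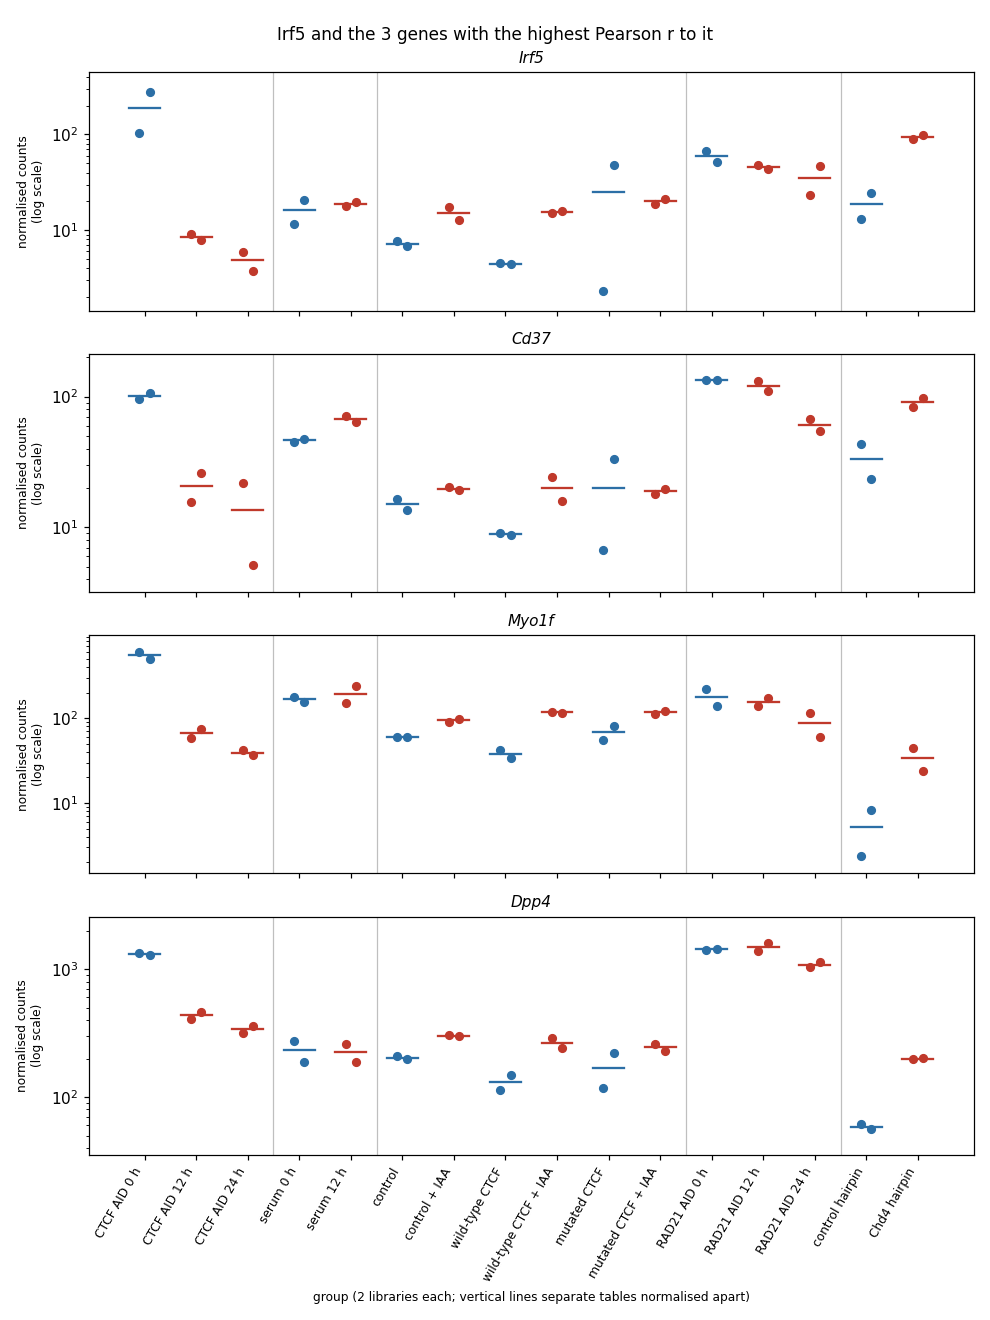
Levels of Irf5 and of the 3 genes most like it in every library (points, normalised counts on a log scale) with group means (bars), in the order and colours of the plot of the 4 genes. Cd37, Myo1f and Dpp4 are low after IAA in the CTCF AID time course and higher with IAA in the overexpression control and wild-type CTCF cells.

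For Scn3a the most alike genes were Snrpd1 (r = 0.871), Plpp3 (0.847) and Ttc5 (0.846). Snrpd1 encodes a core protein of the spliceosome, Plpp3 a lipid phosphatase and Ttc5 a cofactor of p53. Ttc5 read 823.7 and 769.8 normalised counts at 0 h and 144.3 and 156.7 at 12 h in the time course. In the overexpression table it read 965.8 and 951.9 in control cells without IAA, 183.9 and 156.6 with it, and 623.3 and 550.5 with IAA and wild-type CTCF. For Lyrm9 they were Macroh2a2 (0.819), Capn5 (0.788) and Fam171a2 (0.779), and for Tnpo3 Dcaf8 (0.801), Ubn1 (0.794) and Zfp750 (0.777). Macroh2a2 encodes a macroH2A histone variant and Capn5 a calpain protease. Among the 4 genes themselves r was 0.488 for Lyrm9 with Scn3a, 0.476 for Lyrm9 with Irf5 and 0.247 for Irf5 with Scn3a, and it lay between -0.15 and 0.023 for Tnpo3 with each of the others.

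Other genes of the families and pathways of the 4 were counted from lists that were written with earlier results of these data known. Of 20 tested interferon regulatory factor and Toll-like receptor pathway genes other than Irf5, 3 rose and 5 fell at 12 h in the time course, where 17.8% of all genes were called, with a median log2 difference of -0.06 against 0.00 over all genes. Irf8, a relative of Irf5 also known from myeloid cells, read 31.67 and 42.12 normalised counts at 0 h, 0 and 1.265 at 12 h, and 1.642 and 2.452 at 24 h (limma adjusted p = 0.00391 at 12 h). In serum Irf8 read 29.83 and 37 at 0 h and 39.25 and 35.29 at 12 h, and the groups overlapped, as for Irf5. Traf6, the ubiquitin ligase that activates IRF5 below Toll-like receptors, fell by 1.95 in the time course, by 2.57 in serum and by 1.69 in control cells, with limma adjusted p-values of 0.000103, 5.23e-05 and 3.21e-08. With wild-type or mutated CTCF added, Traf6 fell by 0.49 and 0.46 after IAA, also past the test (limma, adjusted p = 0.000374 and 0.000645). Tab1, an adaptor of the kinase TAK1, also fell in these 3 experiments, by 1.66 in control cells (limma adjusted p = 6.75e-05). In serum 3 of 21 tested genes of this list fell and 0 rose by limma (6 and 3 at an unadjusted p under 0.05) where 17% of all genes were called, and in control cells 5 of 19 rose and 4 fell where 25.3% were. With the Chd4 hairpin 7 of 22 rose and 7 fell, near the 67.4% called over all genes, among them Irf7, which read 0 and 0 with the control and 22.67 and 27.23 with the Chd4 hairpin.

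Of 5 tested sodium channel subunit genes other than Scn3a, only Scn4b, an auxiliary beta subunit, was called in the time course, near the 17.8% and 22.5% of all genes called at 12 h and 24 h. It rose by 1.83 at 12 h and 1.84 at 24 h, and by 1.37 in control cells with IAA, with limma adjusted p-values of 0.0104, 0.00831 and 0.0313. In serum Scn8a fell by 0.62, the only call among 6 tested, where 17% of all genes were called. With wild-type or mutated CTCF added, 0 of 5 were called after IAA by limma, and 0 had an unadjusted p under 0.05, where 21.4% and 16.2% of all genes were called. With the Chd4 hairpin 3 of 7 rose and 1 fell, where 67.4% of all genes were called. Scn4b rose by 2.93 on the log2 scale, and Scn4a read 3.478 and 0 normalised counts with the control and 76.86 and 48.63 with the Chd4 hairpin.

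Of 10 tested genes for other LYR-motif proteins, 2 fell and 0 rose by limma at 12 h in the time course, the same counts as at an unadjusted p under 0.05 and near the 17.8% called over all genes. Fmc1, an assembly factor of ATP synthase, fell by 1.44 at 12 h and by 1.53 at 24 h (limma adjusted p = 0.00993 and 0.0065). It fell by 0.62 in serum and by 1.20 in control cells with IAA (limma adjusted p = 0.0289 and 0.00154). Lyrm7, an assembly factor of respiratory complex III, fell by 3.14 at 12 h (limma adjusted p = 0.0478) from 46.02 and 173.5 to 9.172 and 9.325 normalised counts, and its 24 h libraries read 58.36 and 9.723. In control cells 4 of 10 fell and 0 rose by limma, the same as at an unadjusted p under 0.05, where 25.3% of all genes were called. With wild-type or mutated CTCF added 0 of 10 were called after IAA by limma, with 0 and 1 at an unadjusted p under 0.05. Of all genes, 21.4% and 16.2% were called in these 2 comparisons. The median of the list was -0.20 at 12 h in the time course and -0.15 in control cells, against 0.00 over all genes.

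Of 17 tested importin-beta family genes other than Tnpo3, 4 rose and 0 fell by limma at 12 h in the time course, against 8 and 0 at an unadjusted p under 0.05, where 17.8% of all genes were called. Xpo6, the export receptor of actin, rose by 0.39, Tnpo1 by 0.34 and Xpo7 by 0.27 on the log2 scale. In control cells with IAA 10 rose and 2 fell, where 25.3% of all genes were called, with a median of 0.12 against 0.00 over all genes. In serum 3 rose and 1 fell, where 17% were called. With the Chd4 hairpin 3 rose and 8 fell, near the 67.4% called over all genes, Tnpo1 by 0.85 (limma adjusted p = 1.49e-05), whereas Tnpo3 rose.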

How the data were processed

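The data are 5 tables of normalised counts from RNA sequencing of 32 libraries, a signal that is never negative, used as the authors deposited them. The submitters' processing notes name Trim Galore, Bowtie2, STAR, RSEM, DESeq2 and mm10, without versions, roles or order, and the normalisation and strand use are not given in the sources used here. Whole reads could not be recovered from the values, so no count test was run. The CTCF AID table ends in 1 broken line, which was dropped, and 0 columns were left unused. Groups follow the sample titles. Genes whose mean over a table reached 10 were fitted on log2(value + 1), which understates the change of low genes, with limma 3.58.1 in R 4.3.3 (all groups of a table together, mean trend), and a gene was called where its p, adjusted by Benjamini and Hochberg's method across the whole table, was under 0.05. The code was tested on simulated data. Tables were normalised separately, so tests stay within a table. With 2 libraries a group, an exact permutation test of 1 gene cannot give a two-sided p below 0.333 and none was run. Counts of genes lower by at least 8-fold or without overlap carry no test.

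The 4 genes and all lists were chosen with earlier results of these data known. Named besides them are the 3 genes most like each, neighbours within 100 kb or called within 500 kb, up to 3 called genes with the largest differences per list and comparison, and Cyp1a1, Ctcf and Chd4 as checks of the labels. Not all neighbours and list genes that the rule allows are named. Lists covered interferon regulatory factors with the Toll-like receptor pathway, sodium channel subunits, LYR-motif proteins, importin-beta receptors, and markers of pluripotent, primitive endoderm, trophoblast, neural, myeloid and fibroblast cells. Scn3a after 24 h of RAD21 loss was planned as a test and is given without one, because its value was known when the gene was chosen. Positions are from GENCODE M21 on GRCm38, joined by the stem of the Ensembl identifier (99.91% to 100% of identifiers found). Promoters are from RefSeq on GRCm38.p6, and 3 of the 4 genes matched. Alternatives were another pseudocount, filters, a trimmed-mean rescaling, a replicate block, fits with only the compared groups, each library left out and groups by treatment label. Same-numbered replicates correlated between -0.0634 and 0.102 in their deviations from group means, so the numbers were not taken as pairs. Among genes above 100 normalised counts in every library of a table, 0 had identical values in both replicates of a group.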

Additional observations from a re-analysis of the deposited data

Results flagged for a closer look

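The Irf5 libraries with IAA lay below those without it in the CTCF AID time course and above them in the overexpression control cells and in the cells with added wild-type CTCF. Its effect of 12 h of IAA in the CTCF AID time course minus that in the overexpression control cells was -5.12 on the log2 scale, and minus that in the cells with wild-type CTCF it was -5.76. With IAA, Irf5 was higher by 0.95 (SE 0.92, no test) in control cells and by 1.59 (SE 0.92, limma adjusted p = 0.248) with wild-type CTCF, where 31.5% and 30.7% of all genes were higher without overlap. Both contrasts are between separately normalised tables and were not tested.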

How the results depend on the processing

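Of the 20 values of tested differences that changed sign under an alternative, none was called. Among differences without a test, the sign also changed as libraries were left out for Irf5 in serum (-0.13 to 0.68), Lyrm9 in control cells with IAA (-1.09 to 1.26) and Tnpo3 at 24 h of the time course (-0.04 to 0.10). Among tested ones, values changed sign for Lyrm9 in 12 h RAD21 loss (-1.27 to 0.22), in 24 h against 12 h (-1.71 to 0.41) and with mutated CTCF and IAA (-0.10 to 0.40, with -0.05 a further change), and for Irf5 in 24 h against 12 h of RAD21 loss (-0.95 to 0.02), with mutated CTCF and IAA (-1.22 to 2.66) and with mutated CTCF against control (-1.31 to 2.57). For Scn3a they did so with wild-type CTCF and IAA (-1.55 to 0.41), wild-type CTCF against control (-1.59 to 0.37), mutated CTCF against control (-0.73 to 0.0019) and the Chd4 hairpin (-1.30 to 0.60). For Tnpo3 they did so in 12 h RAD21 loss (-0.01 to 0.06), wild-type CTCF against control (-0.03 to 0.03, with -0.01), mutated CTCF against control (-0.0047 to 0.02, with -0.004) and mutated against wild-type CTCF with IAA (-0.0022 to 0.06, with -0.0018). With groups by treatment label, wild-type CTCF against control gave 0.21 for Irf5, -0.05 for Tnpo3 and 11 genes called in place of 125. Only the compared groups in the fit called 2 genes there, 186 in place of 774 for mutated CTCF against control, and 91 in place of 314 for mutated against wild-type CTCF with IAA. Without its replicate 1, mutated CTCF against control gave 2.57 for Irf5.

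Leaving out 1 library at a time, the genes called ranged from 1007 to 1096 (2438 with all libraries) at 12 h and 1499 to 2300 (3079) at 24 h of the time course, 812 to 1909 (2462) in serum, 2357 to 2629 (3530) in control cells with IAA, 1701 to 2067 (2979) with wild-type and 1202 to 1456 (2262) with mutated CTCF and IAA, 59 to 76 (125) and 321 to 394 (774) for wild-type and mutated CTCF against control, 66 to 91 (314) between them with IAA, 554 to 624 (1787), 687 to 885 (1883) and 892 to 1137 (2189) for RAD21 loss at 12 h, 24 h and between, and 7384 to 10096 (10439) with the Chd4 hairpin. Fewer libraries were in each of these fits, and a lone library was assumed to vary like the other groups.

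With the replicate block the genes called were 2382 at 12 h and 3073 at 24 h of the time course and 10537 with the Chd4 hairpin, and 1 call of the 4 genes changed, Lyrm9 with the Chd4 hairpin (-1.06, limma adjusted p = 0.0189 against 0.12). At a mean of at least 100, genes below it were not tested and gave no value. By Spearman's rho the first 2 genes most like Irf5 were Myo1f and Cd37 and the first like Lyrm9, Tnpo3 and Scn3a were Macroh2a2, Dcaf8 and Snrpd1, as by r. The motif search beyond the promoters was not run.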
